A study of Mus musculus with 18 samples.

Results

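Brown adipocytes stimulated with isoproterenol were compared after transfection of LNA2, an antisense oligonucleotide against the long noncoding RNA Gm15551, or of the non-targeting oligonucleotide ctrlA. The comparison used 6 of the 18 libraries of the series, 3 labelled LNA2_iso and 3 labelled ctrlA_iso, chosen by these labels, numbered 2, 3 and 4 in each group and paired by number. All groups shared the cell line wt1-SAM, immortalised mouse brown preadipocytes that stably carry the CRISPR activation machinery SAM, and all were transfected in suspension (reverse transfection) on day 4 of differentiation with 1.4 µl of a 10 µM LNA per well of 500000 cells and harvested on day 7. The stimulated groups received 1 µM isoproterenol for the last 24 h, and the unstimulated groups (LNA2_ctrl and ctrlA_ctrl) did not. The third LNA, LNA1, was directed against another site of the same transcript. Whether the 3 libraries of a group came from separate cultures was not given in the labels, so the p-values measure the spread between these libraries, which may be technical. The cells are a line and not tissue, and no guide RNA for SAM was named for these samples.

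LNA gapmers are short oligonucleotides with locked nucleic acid ends and a DNA core. When they pair with an RNA, RNase H1 cuts that RNA within the duplex, in the nucleus as well as in the cytoplasm, and near matches in other transcripts can be cut as well. Isoproterenol activates β-adrenergic receptors, which raise cAMP and activate protein kinase A. In brown adipocytes this starts lipolysis and the transcription of thermogenic genes such as Ucp1, the mitochondrial uncoupling protein. Gm15551 lies antisense within an intron of Camk2d, which encodes the delta subunit of a calcium/calmodulin-dependent kinase.

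The oligonucleotides are shown because the comparison is defined by them. They were read from the sequence table of the study and are written 5′ to 3′ as DNA letters, without the positions of the locked bases.
ctrlA: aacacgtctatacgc
LNA1: gatgactgagattaga
LNA2: aagtagcacggcgttg
The sites that LNA2 and LNA1 match in the spliced Gm15551 transcript (535 bases, GENCODE M21, GRCm38) are given in capitals with the neighbouring bases of the transcript.
Gm15551, site of LNA2: agccttcCAACGCCGTGCTACTTccacaag
Gm15551, site of LNA1: ttcctgcTCTAATCTCAGTCATCactcctg
LNA2 was complementary to exon 2 of 2 without a mismatch, at chr3:126667608-126667623 on the minus strand, and LNA1 matched the same exon at chr3:126667502-126667517. The best match of ctrlA in this transcript had 7 mismatches. LNA2 had a GC content of 56.2%, LNA1 of 37.5% and ctrlA of 46.7%.

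Library totals were 10718630, 12224878 and 11814780 counts for LNA2_iso replicates 2, 3 and 4 and 14515060, 15390993 and 9582344 counts for the ctrlA_iso replicates. A floor of 3 counts corresponded to 0.193 to 0.306 CPM (counts relative to the library total after TMM scaling) in these libraries. Replicate number 2 stood apart in both groups, with 7.86% and 8.90% of counts from mitochondrial genes against 2.56% to 4.51% in the other 4 libraries. LNA2_iso replicate 3 had the lowest of these shares, and it differed from replicate 4 of its group by a chi-square of 22.5 per degree of freedom, where ctrlA_iso replicates 3 and 4 differed by 3.73. The labels of cell type and treatment were checked on marker genes. The adipocyte fatty acid carrier Fabp4 ranged from 7104 to 15300 CPM in the 6 libraries. Ucp1 had 99 to 241 counts per library, against 16 to 27 in unstimulated ctrlA, while Dio2, which activates thyroid hormone in brown fat, had 0 to 2 counts.

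Whether the target itself was lowered was checked before all else. The Gm15551 gene (ENSMUSG00000086679.2, chromosome 3, 126667329 to 126669044, minus strand) had 4, 5 and 1 counts in LNA2_iso replicates 2, 3 and 4 and 9, 2 and 2 counts in ctrlA_iso. The groups overlapped, and LNA2 was lower in 2 of 3 pairs. The means were 0.283 ± 0.179 CPM with LNA2 and 0.339 ± 0.301 CPM with ctrlA (SD, n = 3 each). An exact two-sided permutation test, which exchanged libraries without regard to the pairs, gave p = 0.8, and as 0.1 is the smallest value that its 20 arrangements allow, it could not have passed. Gm15551 did not pass the filter on low counts and is not among the genes tested below. In a fit of all genes with a count, without that filter, its log2 fold change was -0.16 (SE 0.72, adjusted p 1 in edgeR), and it changed sign when single libraries were left out. With 1 to 9 counts per library, a knockdown of Gm15551 in stimulated cells was not detectable at this depth. Of the 5 tested genes within 1 Mb of it (Arsj, Camk2d, Ank2, Larp7 and Zgrf1), 0 were called. All 5 had values below 0, from -0.15 to -0.38, and Zgrf1 passed the adjusted p below the fold limit (-0.38, adjusted p 0.043). Camk2d, the host gene, had 88.1 ± 1.79 CPM with LNA2 and 97.7 ± 7.86 CPM with ctrlA (log2 fold change -0.15, SE 0.07, adjusted p 0.172). Every LNA2 value of Camk2d was below every ctrlA value, where 8.99% of all genes tested had groups that did not overlap. Against LNA1 in stimulated cells Camk2d gave -0.25 (adjusted p 0.0449 in edgeR), below the fold limit.

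Many other transcripts differed between the groups. Of the 54347 genes listed, 14949 passed the filter on low counts and were tested. At an adjusted p below 0.05 and an absolute log2 fold change above 0.5, the test called 823 genes (5.51% of those tested), of which LNA2 raised 494 (3.30%) and lowered 329 (2.20%). Most changes were small, since 160 of the rises and 52 of the falls exceeded 1 on the log2 scale. With no limit on the fold change 2187 genes (14.6%) passed, 1038 higher and 1149 lower. The median log2 fold change of all genes tested was -0.01. Of the 823 genes, 814 had the same sign in all 3 pairs, and in 419 the 6 libraries did not overlap between the groups, against 8.99% of all genes tested. Both counts follow in part from the selection, since the genes were called with the pairing on these same libraries. They are therefore no separate evidence for the calls. The count of 823 calls rested on the pairing and on the spread shared with the other groups. Without the replicate block 31 genes were called, and with the block fitted to these 6 libraries alone 61 were. It was 487 without LNA2_iso replicate 3, 413 without ctrlA_iso replicate 3 and 1350 without LNA2_iso replicate 4. In libraries of pooled cells, a change in the cells present and a change in RNA per cell cannot be told apart.

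**Figure D1:**
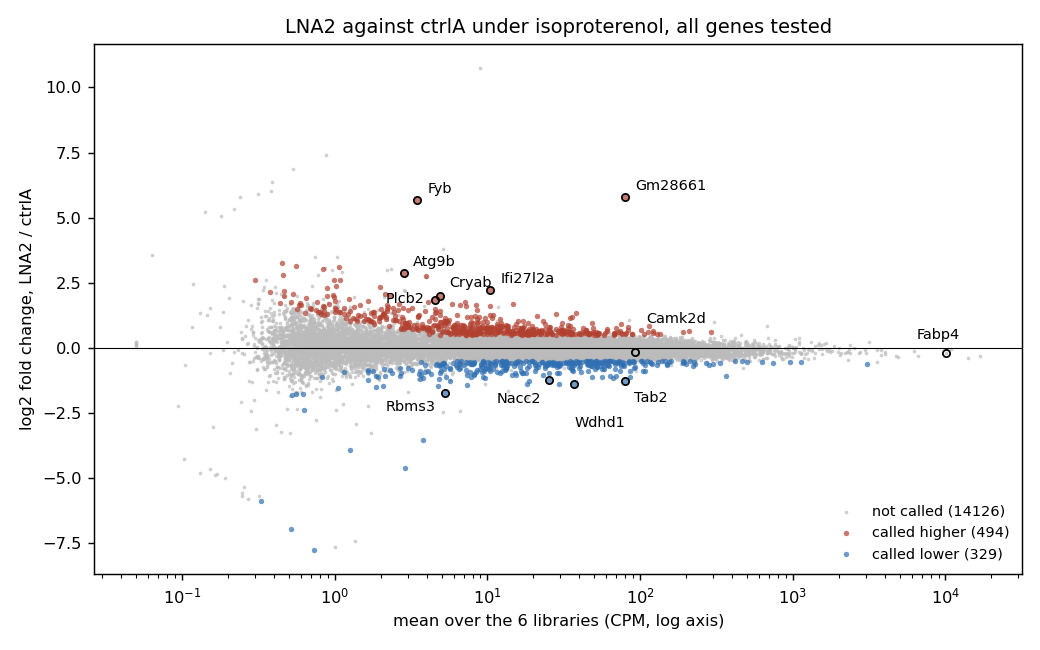
Each point is a tested gene, with its mean over the 6 stimulated libraries in CPM on a log axis and its log2 fold change of LNA2 over ctrlA, coloured by call. The 494 higher and 329 lower calls lie mostly within 1 of the zero line, and Fabp4 and Camk2d, circled, lie among the genes not called.

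The genes with the largest changes were named only among calls whose groups did not overlap and that had 1 direction in all pairs, so the separation described for them follows from the selection.

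Among the genes that rose, Plcb2 encodes a phospholipase C beta that releases inositol trisphosphate downstream of Gq-coupled receptors. It had 4.94, 8.02 and 8.38 CPM in LNA2_iso replicates 2, 3 and 4 and 1.67, 1.42 and 2.96 CPM in ctrlA_iso. All LNA2 values lay above all ctrlA values. The log2 fold change was 1.85 (SE 0.24, adjusted p 0.00031), and with the block in these 6 libraries alone the adjusted p was 0.0402. Without the block it was 0.0535, past the limit. Plcb2 lies on chromosome 2 (118707517 to 118728438, minus strand) and shared no 31-base stretch with another gene.

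Cryab, the small heat shock protein alpha B crystallin, was the most even of the large rises. It had 7.69, 8.73 and 7.23 CPM with LNA2 and 1.90, 2.25 and 1.74 CPM with ctrlA. The groups were thus far apart and each was narrow. Its log2 fold change was 1.99 (SE 0.24, adjusted p 0.000178), and it was called under each of the 16 alternative settings. Its exons overlap those of Hspb2 on the opposite strand, with which it shared 14.8% of its 31-base stretches.

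Atg9b, a membrane protein of autophagosome formation, had 2.94, 5.03 and 7.07 CPM with LNA2 and 0.304, 1.09 and 0.613 CPM with ctrlA. The highest ctrlA library was below the lowest LNA2 library. It was higher by 2.85 log2 units (SE 0.33, adjusted p 0.000165). The gene (chromosome 5, 24384181 to 24392143) overlaps exons of Nos3 on the opposite strand. Hvcn1, the voltage-gated proton channel, had 2.28, 10.2 and 8.46 CPM with LNA2 and 0.304, 1.67 and 0.919 CPM with ctrlA (log2 fold change 2.76, adjusted p 0.000323), but 41.5% of its 31-base stretches are shared with Tctn1 on the opposite strand. Ifi27l2a, a small interferon-inducible protein, had 23.8, 16.1 and 10.9 CPM with LNA2 and 6.69, 2.19 and 2.76 CPM with ctrlA. It was higher in every pair and rose by 2.21 (SE 0.23, adjusted p 0.000112). Without the block the adjusted p was 0.0504 for Atg9b, 0.177 for Hvcn1 and 0.257 for Ifi27l2a.

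The other large rises were in genes of low level. Chil1, a chitinase-like secreted glycoprotein, had 2.47, 5.11 and 2.38 CPM with LNA2 and 0.836, 0.579 and 0.511 CPM with ctrlA (log2 fold change 2.34, adjusted p 0.00136), and it was called without the block as well (adjusted p 0.0168), though not in these 6 libraries alone (adjusted p 0.054). Cend1, a regulator of neuronal cell cycle exit, had 14, 26 and 31 counts with LNA2 and 4, 1 and 3 with ctrlA (log2 fold change 3.09, adjusted p 0.0035). Cend1 was near the floor of 3 counts in each ctrlA library, so the size of this change is uncertain. Brsk1, a kinase of neuronal polarity, rose by 2.07 and overlaps Tmem150b on the opposite strand. The small GTPase gene Rab36 rose by 2.36 and Rragb, a Rag GTPase of amino acid signalling to mTORC1, by 1.78. Rflna rose by 2.61, Asphd2 by 2.03 and 1700007K13Rik by 1.88. With ctrlA these last 5 genes had at most 12 counts in a library. All 5 lost the call without the block and when all 6 libraries of a replicate number were left out, which was number 3 for Rab36, Asphd2 and Rflna, 2 or 3 for Rragb, 2 or 4 for 1700007K13Rik and also 4 for Rflna. Leaving out ctrlA_iso replicate 3 alone already ended the calls of Rflna (adjusted p 0.0549) and Asphd2 (adjusted p 0.0514).

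Of the genes that fell, Tab2, an adaptor that links TRAF6 to the kinase TAK1 in NF-κB signalling, was among the most even. It had 51.1, 38.9 and 49.7 CPM in LNA2_iso replicates 2, 3 and 4 and 92.7, 119 and 126 CPM in ctrlA_iso. The groups did not overlap. The log2 fold change of Tab2 was -1.26 (SE 0.13, adjusted p 0.000112) and was called under each of the 16 alternatives. It lies on chromosome 10 (7905653 to 7956230, minus strand).

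Wdhd1, a DNA replication factor that holds polymerase alpha at the fork, had 29.3, 16.04 and 17.5 CPM with LNA2 and 53.9, 52.2 and 52.8 CPM with ctrlA. The ctrlA values were nearly equal, and replicate 2 was the highest with LNA2. The fall was 1.37 (SE 0.14, adjusted p 0.000109). Nacc2, a transcriptional repressor with a BTB domain (chromosome 2, 26055535 to 26123220), had 17.5, 15.0 and 12.4 CPM with LNA2 and 25.2, 42.2 and 39.0 CPM with ctrlA. Nacc2 was lower in every pair, least so in pair 2. Its log2 fold change was -1.22 (SE 0.18, adjusted p 0.000715), with an adjusted p of 0.0845 without the block and of 0.0521 in these 6 libraries alone.

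Alcam, a cell adhesion molecule, had 13.4, 7.70 and 9.07 CPM with LNA2 and 25.8, 28.3 and 24.4 CPM with ctrlA (log2 fold change -1.40, adjusted p 0.000165). Fmnl2, a formin that elongates actin filaments, had 20.8, 12.3 and 15.6 CPM with LNA2 and 33.3, 48.5 and 44.7 CPM with ctrlA (-1.39, adjusted p 0.000319). Both genes, like Wdhd1 (adjusted p 0.022) and Tab2 (0.00828), were called without the block, Alcam with 0.0136 and Fmnl2 with 0.015. Rbms3, an RNA-binding protein encoded by a gene of 1060 kb, had 3.23, 1.57 and 2.46 CPM with LNA2 and 10.8, 6.69 and 6.84 CPM with ctrlA (-1.75, adjusted p 0.00031). Bbs9, a subunit of the BBSome of primary cilia, fell by 1.45 (adjusted p 0.000302) and Zer1, a substrate receptor of a ubiquitin ligase, by 1.28 (adjusted p 0.000281). The calls of Rbms3 and Zer1 were lost without the block (adjusted p 0.137 and 0.246), while that of Bbs9 was kept (0.042). Akr1b7, an aldo-keto reductase, fell by 1.24 at 9 to 13 counts per LNA2 library (adjusted p 0.0138), shared 27.7% of its 31-base stretches with other genes and lost the call without LNA2_iso replicate 2 or ctrlA_iso replicate 4 and without the block (adjusted p 0.588). Ldlrad4, an inhibitor of TGF-β signalling, fell by 1.48 (adjusted p 0.00391), but 50.3% of its 31-base stretches are shared with Fam210a on the opposite strand, and its adjusted p without the block was 0.0995.

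**Figure D2:**
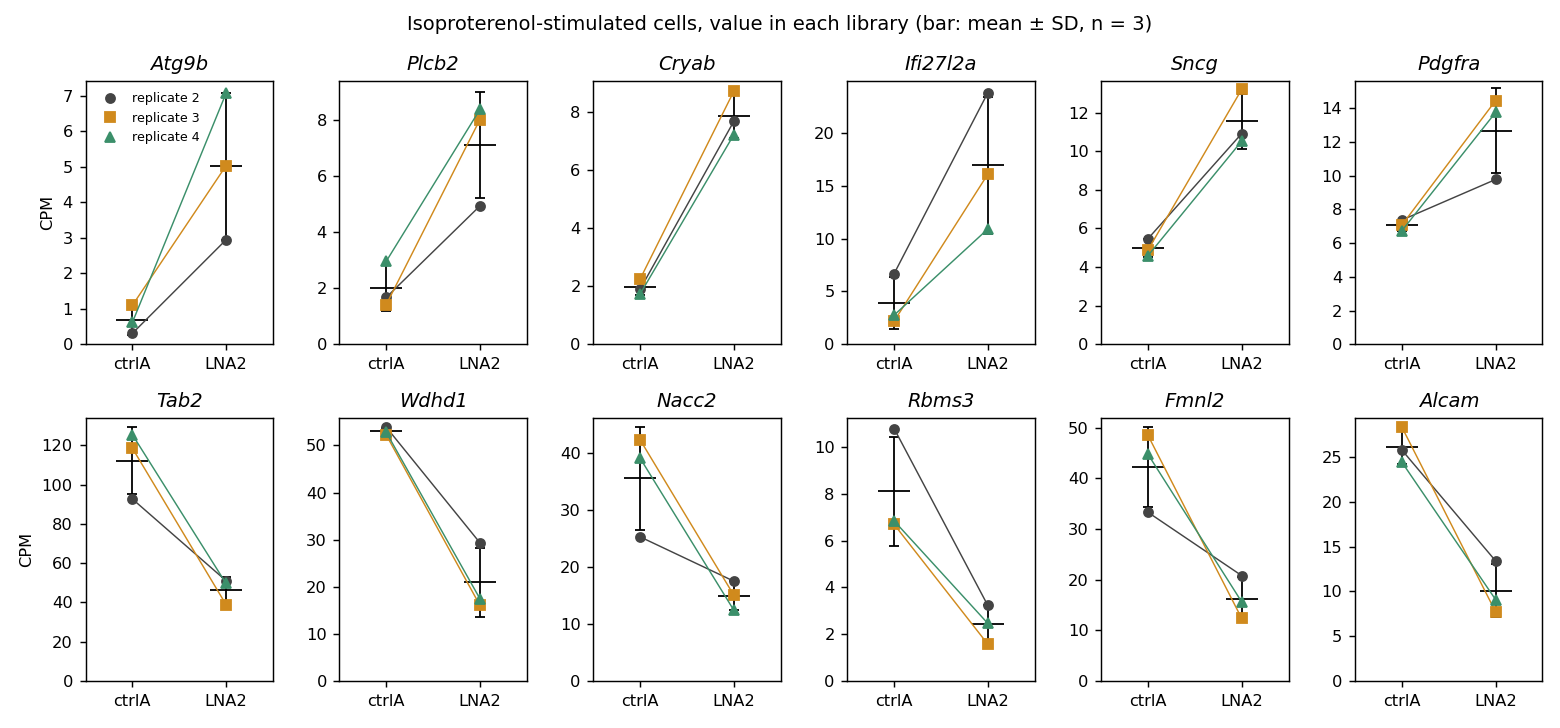
Each panel shows a gene in CPM on a linear axis from 0, with lines joining libraries of the same replicate number and bars for the mean ± SD (n = 3). In the upper row every LNA2 library lies above every ctrlA library, and in the lower row every LNA2 library lies below. The rule for the largest changes requires this of the genes shown, except Sncg and Pdgfra, which were named as called list members.

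The largest fold changes among the named genes were in genes that overlap or share sequence with others, so their counts are uncertain. Gm28661, a pseudogene whose 31-base stretches are all (100%) found in the mitochondrial gene mt-Co2, had 442, 4978 and 441 counts with LNA2 and 0, 109 and 0 with ctrlA. Its highest value was in LNA2_iso replicate 3, the library with the lowest mitochondrial share, and the part of that share in this result was not tested. Fyb, an adaptor of T cell receptor signalling, had 67, 150 and 25 counts with LNA2 and 0, 8 and 0 with ctrlA, and it overlaps Gm2245 on the opposite strand. Fyb lost the call without LNA2_iso replicate 3 (adjusted p 0.0708) or ctrlA_iso replicate 2 (adjusted p 0.0757), and Gm28661 without ctrlA_iso replicate 3, its only ctrlA library with counts (adjusted p 0.0958). Among the falls, H2ac18, Gm44502, Gm42927, Hist1h2al and Gm49187 shared between 81.9% and 100% of their 31-base stretches with other genes. Fyb and Gm28661 had log2 fold changes of 5.68 and 5.80 here, which were unstable in size, with 12.5 for Gm28661 without ctrlA_iso replicate 3. Both were negative without significance in unstimulated cells (-1.14 and -0.88, adjusted p 0.672 and 0.802).

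The genes were then grouped by function, with lists written from general knowledge. Across all lists 28 genes were called, 16 higher and 12 lower. This count rested on the block and on the shared spread. Without the block 0 list members were called, and with only these 6 libraries 4 were, namely Sncg, Plcb2, Ifi27l2a and Atg9b. It was 21 without LNA2_iso replicate 3, which stood apart from replicate 4, and also 21 without ctrlA_iso replicate 3. Without the former Retn (0.496), Cfd (0.44), Plcb1 (-0.498), Prkce (-0.48) and Tap1 (0.41) passed the adjusted p but not the fold limit. Ebf2 (-0.39, adjusted p 0.0584), Rgs2 (-0.95, adjusted p 0.0607), Ccl2 (0.83, adjusted p 0.0783), Lox (-0.37, adjusted p 0.136), Idi1 (-0.30, adjusted p 0.0655) and Csf1r (1.60, adjusted p 0.114) no longer passed the adjusted p in edgeR. Without the latter Cfd, Ebf2, Rgs2, Idi1, Ccl2, Cxcl5, Plk2, Lox and Csf1r lost their calls, with adjusted p from 0.0514 (Cxcl5) to 0.172 (Idi1 and Lox). Shares are read against the 5.51% of all genes tested that were called and medians against -0.01.

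Of 23 genes of adipocyte identity tested, 3 were called higher (13.0%) and 0 lower, with a median log2 fold change of -0.02. The 3 were the adipokine gene Retn (0.63, adjusted p 0.0015), Cfd, which encodes adipsin (0.58, adjusted p 0.00826), and Sncg, the synuclein expressed in fat cells. Sncg had 10.9, 13.2 and 10.5 CPM with LNA2 and 5.47, 4.89 and 4.59 CPM with ctrlA (1.22, SE 0.24, adjusted p 0.00465). The groups did not overlap for Sncg, but they did for Retn and Cfd, whose replicate 2 libraries were high in both groups. The adipogenic transcription factor Pparg had a log2 fold change of -0.23 (adjusted p 0.0256), below the limit for a call. The fatty acid transporter gene Cd36 (-0.40, adjusted p 0.0155) and Pck1, which serves glyceroneogenesis (-0.33, adjusted p 0.0295), also passed the adjusted p alone. Adipoq gave 0.15 (adjusted p 0.216) and Fabp4 -0.22 (adjusted p 0.115).

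The thermogenic list leaned lower, with 15 of 20 tested genes below 0 and a median of -0.27, but a single gene was called. This was Ebf2, a transcription factor of brown fat identity, at 17.2, 16.1 and 21.4 CPM with LNA2 and 18.4, 31.9 and 31.2 CPM with ctrlA (-0.56, SE 0.14, adjusted p 0.0139). The groups overlapped, and the fall was small in pair 2. A further 5 genes passed the adjusted p but not the fold limit. Among these Elovl3, an elongase of very long fatty acids induced in activated brown fat, had 294 ± 32.4 CPM with LNA2 and 393 ± 23.3 CPM with ctrlA (SD, n = 3 each; -0.43, adjusted p 0.00788). Ucp1 had 9.40, 12.6 and 11.7 CPM with LNA2 and 13.2, 15.5 and 16.5 CPM with ctrlA. Every LNA2 value of Ucp1 was below every ctrlA value, yet the test did not pass (-0.42, SE 0.18, adjusted p 0.133). Cidea, a lipid droplet protein of brown fat, gave -0.38 (adjusted p 0.138). Over the 16 alternatives the median of the list lay between -0.33 and -0.21.

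Of the receptors, cyclases, phosphodiesterases and kinases of β-adrenergic and cAMP signalling, 27 were tested, 0 rose and 2 fell, with a median of -0.06. Prkacb, a catalytic subunit of protein kinase A, had 48.9, 44.8 and 48.3 CPM with LNA2 and 58.8, 87.8 and 82.8 CPM with ctrlA (-0.67, SE 0.12, adjusted p 0.0019). The LNA2 libraries were below all ctrlA libraries. Rgs2, which inhibits Gq signalling, gave -1.12 (adjusted p 0.0209), with 9.78, 0.943 and 0.846 CPM against 14.4, 3.09 and 2.96 CPM, and lost the call when either replicate 3 library or ctrlA_iso replicate 4 was left out. Adrb3, the β3-adrenergic receptor, was not called (0.09, adjusted p 0.929). Of 20 genes of phospholipase C and calcium signalling, Plcb2 rose while Plcb1 (-0.60, adjusted p 0.00243), another phospholipase C beta, and Prkce (-0.59, adjusted p 0.00404), a protein kinase C, fell. Plcb1 had 82.2, 77.9 and 87.8 CPM with LNA2 and 104, 139 and 137 CPM with ctrlA.

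Targets of p53 leaned higher, with a median of 0.25 and 17 of 24 above 0. Called higher were 4 (16.7%) and called lower 0. Phlda3, which restrains Akt, had 57.3, 149.7 and 116 CPM with LNA2 and 44.0, 66.1 and 69.7 CPM with ctrlA (0.78, SE 0.14, adjusted p 0.0027). Zmat3, an RNA-binding protein, rose by 0.62 (adjusted p 0.00172), the receptor gene Eda2r by 0.77 (adjusted p 0.0075) and the polo-like kinase gene Plk2 by 0.53 (adjusted p 0.0192). All 4 were higher in every pair. Plk2 lost the call when ctrlA_iso replicate 2 (0.42, adjusted p 0.0749), ctrlA_iso replicate 3 (0.58, adjusted p 0.0582) or LNA2_iso replicate 2 (0.41, adjusted p 0.063) was left out, Eda2r without all libraries of number 3 or of number 4, and Phlda3 without those of number 3. Mdm2, the ubiquitin ligase of p53, passed the adjusted p below the fold limit (0.45, adjusted p 0.00321), and Cdkn1a, the cell cycle inhibitor p21, was not called (0.15, adjusted p 0.106). Over the alternatives the median lay between 0.21 and 0.34, and it was 0.30 in unstimulated cells.

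Interferon response genes had a median of 0.29, with 24 of 30 above 0. This median lay between 0.20 and 0.51 over the 16 alternatives. Ifi27l2a and Tap1, a peptide transporter of antigen presentation (0.54, adjusted p 0.00141), rose, and Parp9 (-0.62, adjusted p 0.00771) fell, though without ctrlA_iso replicate 4 Parp9 missed the fold limit (-0.49, adjusted p 0.0417). Many of the others were at low level, such as Ifit3 (1.99, adjusted p 0.137) and Isg15 (0.75, adjusted p 0.299). Of 27 NF-κB and inflammatory genes 2 rose, the chemokine genes Ccl2 (1.01, adjusted p 0.0183) and Cxcl5 (0.74, adjusted p 0.0444), and 1 fell, the adhesion molecule gene Vcam1 (-0.72, adjusted p 0.000765). Ccl2 had 7.03, 5.82 and 3.77 CPM with LNA2 and 3.88, 2.57 and 1.94 CPM with ctrlA. The range of both groups overlapped, although LNA2 was higher in each pair. The calls of Ccl2 and Cxcl5 were each lost in more than 1 of the fits that left out a library, with ctrlA_iso replicates 2 and 3 among the libraries left out.

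Extracellular matrix genes fell where they were called, 3 of 26 tested, with a median of -0.06. Col3a1, the type III collagen chain, had 130.4, 189.9 and 149.9 CPM with LNA2 and 189.4, 283 and 247 CPM with ctrlA (-0.61, SE 0.09, adjusted p 0.000557). It was lower in each pair, with a slight overlap of the groups. The matricellular protein gene Postn (-0.80, adjusted p 0.00283) and Lox, the lysyl oxidase that cross-links collagen (-0.50, adjusted p 0.0344), were also lower. Idi1 (-0.54, adjusted p 0.0281) and Nsdhl (-0.52, adjusted p 0.00244) fell among 19 genes of cholesterol synthesis and uptake. Idi1 also lost its call without ctrlA_iso replicate 3 (-0.40, adjusted p 0.172) and Nsdhl without ctrlA_iso replicate 4 (-0.42, adjusted p 0.0178). In the list for autophagy and lysosome 1 of 36 was called, Atg9b, while 8 passed the adjusted p alone. They include the autophagy receptor gene Sqstm1 (0.47, adjusted p 0.00108) and the kinase gene Ulk1 (0.41, adjusted p 0.00585). Of 24 genes of integrated and ER stress 0 were called, with 17 below 0 and a median of -0.13, but 8 passed the adjusted p alone, all of them lower, where 14.6% of all genes tested passed. The largest of these differences were in the ER chaperone gene Hsp90b1 (-0.45, adjusted p 0.00184), in Manf, a secreted factor of the ER stress response (-0.49, adjusted p 0.00117), and in Slc7a11 (-0.46, adjusted p 0.0205). Lipogenesis (20 tested) and RNase H and gapmer handling (12 tested) had 0 calls. Rnaseh1, the enzyme that gapmers recruit, gave 0.24 (adjusted p 0.2).

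Markers of other cell types were examined because differentiated cultures can hold undifferentiated cells. Of 11 preadipocyte markers tested, Pdgfra, the receptor that marks adipocyte progenitors, was called, at 9.78, 14.5 and 13.8 CPM with LNA2 and 7.37, 7.08 and 6.74 CPM with ctrlA (0.83, SE 0.17, adjusted p 0.00443). All LNA2 values exceeded all ctrlA values. Pdgfra lost the call without all libraries of replicate number 3 or of number 4, while its log2 fold change ranged from 0.72 to 1.06 over the alternatives. The median log2 fold change of the list was 0.40 and lay between 0.11 and 0.48 over the 16 alternatives, but it was 0.03 in unstimulated cells. Of the 11 tested, 7 were above 0 and 4 below, the lowest at -0.91. The list member Cd34 had 4, 6 and 6 counts with LNA2 and 10, 13 and 9 with ctrlA. The receptor gene Pdgfrb passed the adjusted p below the fold limit (0.40, adjusted p 0.0168). The summed level of the list, most of it from Vim, was 835 to 1300 CPM with LNA2 and 896 to 1380 CPM with ctrlA, and Dpp4 was at 0 in all 6 libraries. Of 16 macrophage markers 3 were tested. Cd68, which is also a general lysosomal gene, rose by 0.80 (adjusted p 0.0038), and Csf1r, the receptor of the macrophage growth factor, by 2.00 (adjusted p 0.0291) at 12, 16 and 23 counts against 3, 3 and 7. The summed level of these markers, most of it from Cd68, was 33.0 to 49.9 CPM with LNA2 and 15.7 to 30.5 CPM with ctrlA. Of the defining markers Adgre1 was at 0 in all 6 libraries, Ptprc had 0 to 2 counts and C1qa 0 or 1. Csf1r overlaps Hmgxb3 on the opposite strand and lost the call when any of the 3 ctrlA_iso libraries was left out. Cd68 lost its call without all libraries of replicate number 3 or of number 4, and its log2 fold change ranged from 0.55 to 1.11 over the alternatives. The part of these cell types in the other results was not tested. The endothelial, skeletal muscle and neuronal lists had 2, 3 and 1 tested genes and 0 calls.

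**Figure D3:**
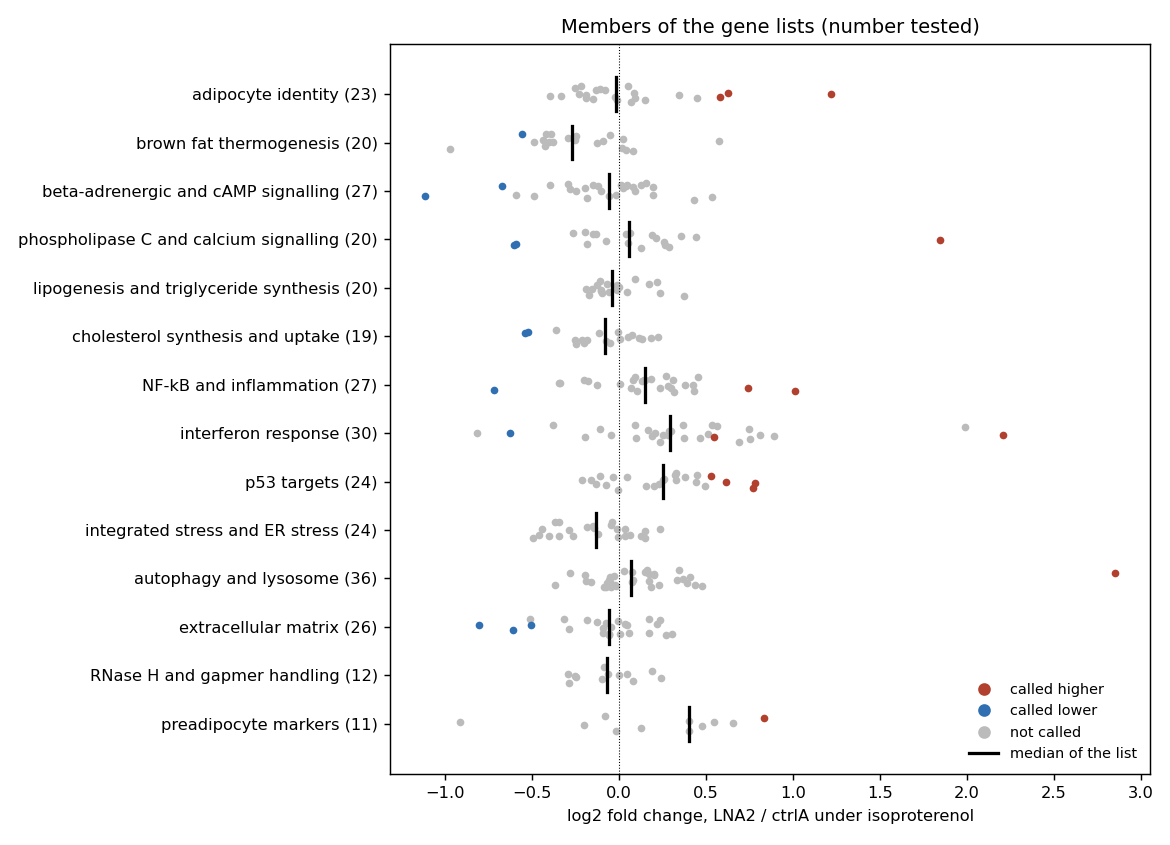
Each point is a tested list member, placed by its log2 fold change of LNA2 over ctrlA under isoproterenol and coloured by call, with a black bar at the median of the list (lists with at least 10 tested members). The medians of preadipocyte markers, interferon response genes and p53 targets lie at 0.40, 0.29 and 0.25, that of thermogenic genes at -0.27, and most members of every list are not called.

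To see whether the LNA2 changes depended on stimulation, the same LNA was compared with ctrlA in unstimulated cells, in 6 other libraries. There 417 genes were called (2.79%), 263 higher (1.76%) and 154 lower (1.03%). This count was 29 without the replicate block and 177 without LNA2_ctrl replicate 4, and the shares below come from the reported fit only. Of the 494 genes higher under isoproterenol, 187 were also called higher without it, which is 37.9% of the former and 71.1% of the latter. Of the 329 lower genes, 108 were also called lower, 32.8% and 70.1%. In the direction of the change, 482 and 320 genes had the same sign (97.6% and 97.3%), where the shares over all genes tested were 65.4% and 73.0%. No gene was called in opposite directions (0 of either list). The median log2 fold change of the 494 genes was 0.76 with isoproterenol and 0.55 without, and that of the 329 genes -0.67 and -0.42. The former are the values by which these genes were selected. Both sets of libraries were fitted together and share the replicate numbers.

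Atg9b rose by 2.76 without stimulation (adjusted p 0.000264), Plcb2 by 2.12 (adjusted p 0.000191) and Ifi27l2a by 2.25 (adjusted p 7.72e-05). Nacc2 (-1.43, adjusted p 0.00027), Zer1 (-1.42, adjusted p 0.000191), Wdhd1 (-1.22, adjusted p 0.000191) and Tab2 (-1.11, adjusted p 0.000191) fell. These 7 changes had about the size seen with isoproterenol. Cryab rose by 0.97 (adjusted p 0.0126) and Rab36 gave 1.03 (adjusted p 0.141), both smaller than in stimulated cells, but the tests of the difference gave an adjusted p of 0.81 each.

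The difference of the LNA2 effect between the states was tested for every gene, and 0 genes (0%) passed in edgeR, with 807 at an unadjusted p under 0.05. DESeq2 passed 2 genes. The smallest adjusted p was that of Gm42927, a processed pseudogene that shares 99.2% of its 31-base stretches with other genes. It had 0, 22 and 0 counts with LNA2 and 87, 114 and 68 with ctrlA under isoproterenol, and 96, 117 and 152 against 39, 75 and 76 without it (difference -4.58 on the log2 scale, adjusted p 0.0697). Phldb1, which binds phosphoinositides at the cell cortex, had a log2 fold change of 0.59 with and 0.12 without isoproterenol. Gpsm2, a protein of spindle orientation, had -0.26 and 0.15. For Phldb1, Gpsm2, Gm14418 and 9430037G07Rik the adjusted p of the difference was 0.81 each. A count of 0 does not show that the effects were equal, since the spread of a difference between 4 groups is larger than that of a single comparison.

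**Figure D4:**
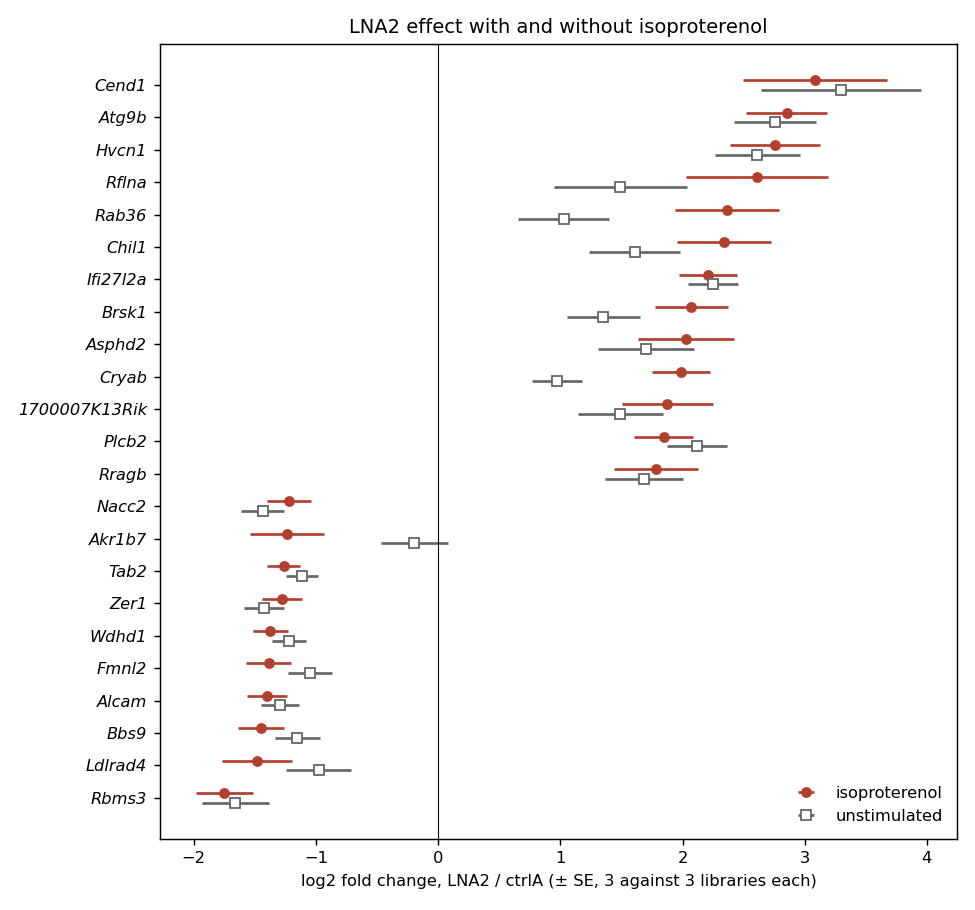
For the named genes with the largest changes, leaving out Fyb and 6 genes that share most of their sequence with others, the log2 fold change of LNA2 over ctrlA is shown with its SE under isoproterenol (filled circles) and without it (open squares). The points lie on the same side of 0 in both states, and the points of Rab36 (2.36 and 1.03), Rflna (2.61 and 1.49), Akr1b7 (-1.24 and -0.19) and Cryab (1.99 and 0.97) lie furthest apart.

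LNA1, directed against the same transcript, allows a comparison within stimulated cells in which ctrlA is neither of the groups compared. The ctrlA libraries were still part of the fit that gave the spread and the replicate terms. The comparison does use the LNA2_iso libraries by which the genes below were named, so their values here are no independent evidence. Between LNA2 and LNA1 the test called 513 genes (3.43%), with 217 at a higher and 296 at a lower level in LNA2. Against ctrlA, LNA1 had 217 calls (1.45%), in a comparison that shares the ctrlA libraries with that of LNA2. Without the replicate block these counts were 28 and 2, and with the compared libraries alone 337 and 286. Leaving out a single library moved the first between 224 and 835 and the second between 77 and 185. For Tab2 the log2 fold change was -1.30 against LNA1 (adjusted p 7.34e-05), and LNA1 against ctrlA gave 0.04 (adjusted p 0.932). Wdhd1 (-1.33, adjusted p 8.78e-05), Nacc2 (-1.17, adjusted p 0.00144), Alcam (-1.26, adjusted p 0.000368) and Fmnl2 (-1.61, adjusted p 0.000126) were also lower with LNA2 than with LNA1. Among the rises, Atg9b (2.60, adjusted p 0.000265), Cryab (1.79, adjusted p 0.000368) and Plcb2 (1.27, adjusted p 0.00413) were higher than with LNA1.

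For Cend1, Pdgfra and Elovl3 the test between the LNAs did not pass, which does not show that their levels were equal. Cend1 gave 0.50 in LNA2 against LNA1 (adjusted p 0.532) and rose with LNA1 against ctrlA by 2.59 (adjusted p 0.032). Pdgfra gave -0.08 (adjusted p 0.805) and was 0.91 (adjusted p 0.00779) with LNA1 against ctrlA. Elovl3 gave 0.02 (adjusted p 0.917) between the LNAs and -0.45 (adjusted p 0.0173) with LNA1, close to its -0.43 with LNA2. Ifi27l2a lay between, at 0.93 above LNA1 (adjusted p 0.0145) and with a rise of 1.28 with LNA1 (adjusted p 0.0113). Of the 4 p53 targets called with LNA2, 3 were also called higher than with LNA1, Eda2r (0.90, adjusted p 0.00499), Zmat3 (0.83, adjusted p 0.000311) and Phlda3 (0.68, adjusted p 0.00973). Plk2 stayed below the fold limit (0.49, adjusted p 0.0417).

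The genes called were also described by features that the calls did not use. Protein-coding genes called lower had a median span of 40.1 kb from start to end, those called higher 19.0 kb and all tested 23.0 kb. In the longest decile of genes (113 to 4430 kb) 6.21% were called lower and 1.53% higher, whereas in the first 8 deciles 1.13% to 2.26% were called lower and 3.39% to 4.84% higher. In unstimulated cells the lower calls had a median span of 62.6 kb. The pairs differed, however. The median log2 ratio went from 0.22 in the shortest to -0.19 in the longest decile in pair 3 and from -0.03 to -0.14 in pair 4, but from -0.10 to 0.04 in pair 2. Without LNA2_iso replicate 3 the median span of the lower calls was 43.2 kb and without all libraries of replicate number 3 it was 43.5 kb. With the libraries of number 3 left out, 2.90% of genes of at least 113 kb and 0.92% of shorter genes were called lower, against 6.22% and 1.94% with all libraries, so that both shares fell. Lower calls also had a median GC content of 44.2% in their transcripts, against 54.8% for higher calls and 49.8% for all, and 29 of the 329 lay on the X chromosome (8.81%, against 2.86% of all genes tested). In unstimulated cells the lower calls had a GC content of 48.1%, nearer to that of all genes, and 7 of the 154 lay on the X chromosome (4.55%). Genes called lower with LNA1 against the same stimulated ctrlA libraries had a GC content of 46.3% and a median span of 34.6 kb. Of these 49 genes, 4 lay on the X chromosome (8.16%), a share that rests on few genes. The level differed too, although the test itself uses it. Protein-coding genes called higher had a median of 8.76 CPM over the 6 libraries, those called lower 25.2 CPM and all tested 30.7 CPM. Span, GC content, level and replicate number move together with these calls, and their part in the result was not tested.

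**Figure D5:**
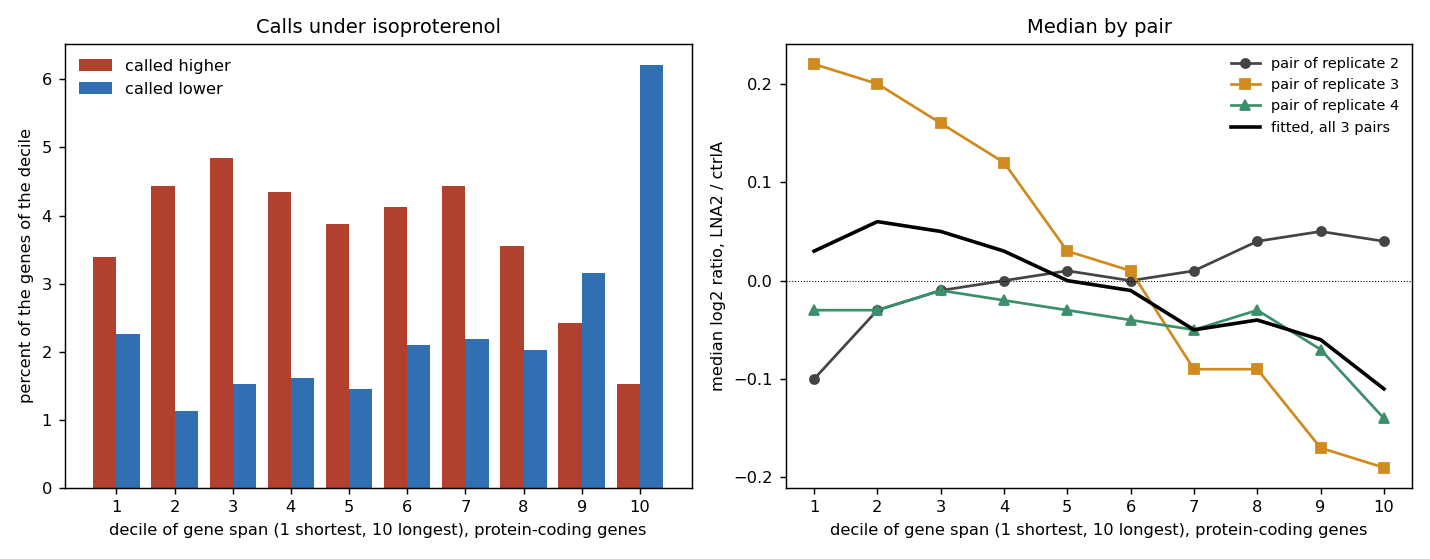
Protein-coding genes were divided into 10 bins of equal size by gene span. The left panel gives the percentage of each bin called higher or lower under isoproterenol (6.21% lower in the longest bin), and the right panel the median log2 ratio of LNA2 over ctrlA in each pair and in the fitted model, which falls with span in pairs 3 and 4 and rises slightly in pair 2.

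Matches to LNA2 were sought in the spliced transcripts of the tested genes, since a gapmer can cut transcripts that resemble its target. Introns were not searched here. Of 14936 tested genes with a transcript sequence, 0 had a site with at most 1 mismatch and 4 had a site with 2. Of these, 3 are shown with the mismatched bases in capitals, below the site in Gm15551 in lower case, and positions are counted from 1 at the 5′ end of that site.
Gm15551: caacgccgtgctactt
Ptdss2: caaGgccTtgctactt
Slc7a11: caacTccCtgctactt
Gm44950: caaTgccAtgctactt
The substitutions were C4G and G8T in Ptdss2 (exon 8, chr7:141153146-141153161), G5T and G8C in Slc7a11 (exon 12, chr3:50367426-50367441) and C4T and G8A in Gm44950 (exon 1, chr7:79922703-79922718). None of the 4 genes was called. Slc7a11, the cystine transporter, had a log2 fold change of -0.46 (adjusted p 0.0205), below the fold limit. The phosphatidylserine synthase gene Ptdss2 gave 0.06 (adjusted p 0.722) and Gm44950 -0.47 (adjusted p 0.0842).

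With up to 3 mismatches, 6 of the 328 lower genes searched had a site (1.83%), 4 of the 493 higher genes (0.811%) and 133 of all genes (0.89%). The 6 were Utrn, Bfar, Ect2, Hpf1, Rhoj and H2aw. Utrn, which encodes the dystrophin relative utrophin, has the 12 bases from the 5′ end of the site intact and differs at the other end.
Utrn: caacgccgtgctCcAC
Its substitutions were A13C, T15A and T16C (exon 6, chr10:12747923-12747938, minus strand), and its log2 fold change was -0.90 (adjusted p 0.00113) and -0.83 without stimulation (adjusted p 0.00274). Ect2, an exchange factor of cytokinesis, fell by 1.10 (adjusted p 0.000159). For the complement of ctrlA, 7 of the lower genes had a site with up to 3 mismatches (2.13%), against 240 of all genes (1.61%). A match is a description and does not show that LNA2 bound there.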

How the data were processed

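RNA-seq libraries were made with NEBNext Ultra II and sequenced paired-end on a NovaSeq. Per the labels and the study's methods, the authors trimmed reads with cutadapt and estimated expected counts per gene with Salmon (Gencode M22, GRCm38), which were deposited as whole numbers. Salmon shares reads between similar transcripts, so genes with common sequence are uncertain. Strand setting and tool versions were not given in the sources used here.

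All 18 libraries (6 groups of 3) were fitted with edgeR 4.0.16 (R 4.3.3) by the quasi-likelihood test with TMM scaling, 1 term per group and the replicate number as a block (10 residual degrees of freedom), after filterByExpr with a minimum count of 10 and total of 15. A call required a Benjamini-Hochberg adjusted p below 0.05 and an absolute log2 fold change above 0.5, and for differences between states the p alone. The pairing by replicate number was part of the definition of the comparison, and the labels use the same numbers in every group. They state no shared culture or day. Samples of the same number deviated together, with r = 0.656, 0.28 and 0.327 for numbers 2, 3 and 4. Between different numbers r ranged from -0.515 to 0.297 in these groups and reached 0.404 between groups over all 18 libraries, so the pairing is weaker for numbers 3 and 4. The fit was tested on simulated data. Alternatives were no block, DESeq2 1.42.0, RLE factors, no filter, the compared libraries alone, removal of mitochondrial and ribosomal RNA genes, glmTreat and leaving out libraries. The recomputed gene span was added after seeing the data.

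Named genes were the 15 largest rises and 15 largest falls among calls with a mean of at least 1 CPM, groups that did not overlap and 1 direction in all 3 pairs, a fixed set (Gm15551, Camk2d, Plcb2, Nacc2, Ucp1, Pparg, Adipoq, Fabp4, Elovl3, Cidea, Dio2, Lep), called list members, and the 5 smallest p for the difference between states. Genes with near matches to LNA2, and the uncalled list members and the features described, were named after their values were seen. The members and lists were chosen with earlier results of these data known. Positions, spans and transcripts came from GENCODE M21 (GRCm38), which matched 99.53% of the 54347 genes listed. Shared sequence was counted in stretches of 31 bases. Gene bodies were not searched for LNA sites. Floors cover counting error only. Some genes of the lists and site search are not reported here.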

Additional observations from a re-analysis of the deposited data

How the results depend on the processing

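The count of calls depended most on the replicate block. Without the replicate block the comparison of LNA2 with ctrlA under isoproterenol called 31 genes in place of 823, all among the 823, which all kept their sign. Without it the unstimulated comparison called 29 in place of 417, LNA2 against LNA1 28 in place of 513, LNA1 against ctrlA 2 in place of 217 and the gene lists 0 in place of 28. Of the 57 named genes called, 7 kept the call without the block (Chil1, Cryab, Bbs9, Alcam, Fmnl2, Wdhd1 and Tab2), and no named gene changed sign under any setting (0 of the 66 tested).

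With the compared libraries alone, the stimulated comparison called 61, LNA2 against LNA1 337 and the lists 4, while the unstimulated comparison rose to 505 and LNA1 against ctrlA to 286, and 16 named genes kept their call. With glmTreat the stimulated comparison called 62 and the lists 3. DESeq2 called 757 and RLE factors 829, and DESeq2 passed 2 genes for the difference between states, where edgeR passed 0. DESeq2 gave no adjusted p for 2609 genes, among them Cend1, Rflna and Rab36. Without the filter 1083 were called, of which 48.7% were higher against 60.0% in the reported fit, the difference passed 132 genes and LNA1 against ctrlA had 457 calls.

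Leaving out libraries moved the stimulated count between 297 (all of replicate number 3) and 1350 (LNA2_iso replicate 4). It was 413 without ctrlA_iso replicate 3 and 487 without LNA2_iso replicate 3. The unstimulated count ranged from 177 (LNA2_ctrl replicate 4) to 426, with 245 and 238 without ctrlA_ctrl replicates 3 and 4. The difference passed 0 genes or 1 (without LNA2_iso replicate 3). LNA2 against LNA1 ranged from 224 (LNA1_iso replicate 4) to 835 (LNA2_iso replicate 4), with 301 and 309 without LNA1_iso and LNA2_iso replicate 3. LNA1 against ctrlA ranged from 77 (LNA1_iso replicate 3) to 185, with 83, 86 and 97 without ctrlA_iso replicates 3 and 4 and LNA1_iso replicate 4. The list calls ranged from 15 (replicate number 3) to 41 (LNA2_iso replicate 4).

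The log2 fold change of Gm15551 (-0.16) ranged from -0.745 to 0.289 and was positive without ctrlA_iso replicate 2 (0.289), LNA2_iso replicate 2 (0.14) or LNA2_iso replicate 4 (0.059). At 1 to 9 counts per library its level is limited by depth. Allowing 2 mismatches gave 4 LNA2 sites in place of 0. The median span of the genes called lower lay between 32.8 kb and 78.1 kb (40.1 kb as reported), with 69.0 kb without replicate number 2. The cause of these shifts was not tested.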
